A study of Mus musculus with 4 samples.

Results

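The 41 genes described here encode the enzymes and regulators of fatty acid and cholesterol synthesis. They were chosen by name and not by their values, although earlier results of these data were known. They come from lipogenesis, desaturation, sterol synthesis and the SREBP (sterol regulatory element-binding protein) system. All 41 were found among the 49671 genes of the deposited table. The study sorted basal and luminal cells from prostate tips of young mice and sequenced their RNA, with 2 libraries per cell type. The mice were of strain CD-1, untreated and at postnatal days 10 to 13 per the labels. The study's methods describe the mice as males of mixed background and give a narrower age range. They describe tips cut from ventral lobes of many mice, without saying how the mice were divided among the libraries. Basal cells were sorted as EpCAM high and CD49f high and luminal cells as EpCAM high and CD49f low, after cells positive for CD45, CD31 or CD140a had been excluded. No genotype or treatment differed between the groups, and nothing states that the libraries of a group came from separate animals, so p-values measure only the spread between these samples, which may be technical.

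In background, cytosolic acetyl-CoA feeds both pathways. Acetyl-CoA carboxylase and fatty acid synthase build palmitate, which elongases lengthen, desaturases unsaturate and acyltransferases esterify to glycerol, while the mevalonate pathway builds isoprenoids and squalene that are cyclized and trimmed to cholesterol. SREBP proteins drive the transcription of both sets of enzymes: SCAP escorts them out of the endoplasmic reticulum and the INSIG proteins retain them there when sterols are plentiful. Prostate epithelium is known for lipid synthesis under androgen control, and the study asked how metabolism shifts as multipotent basal cells give rise to luminal cells.

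SREBP binds sterol regulatory elements, usually beside CCAAT boxes bound by NF-Y, and the promoters of 3 members that recur in the results are shown for these letters. The stretches lie just upstream of RefSeq transcript starts on GRCm38.p6 and are written 5′ to 3′ on the gene's strand. The Hmgcs1 stretch is chr13:119690101-119690350 on the plus strand, the Insig1 stretch is chr5:28071162-28071362 on the plus strand and ends 50 bases before the start, and the Gpam stretch is chr19:55127239-55127488 on the minus strand. Capitals mark every match on either strand to the sterol element TCACNCCAC, the CCAAT box CCAAT and the E-box CACGTG.
Hmgcs1: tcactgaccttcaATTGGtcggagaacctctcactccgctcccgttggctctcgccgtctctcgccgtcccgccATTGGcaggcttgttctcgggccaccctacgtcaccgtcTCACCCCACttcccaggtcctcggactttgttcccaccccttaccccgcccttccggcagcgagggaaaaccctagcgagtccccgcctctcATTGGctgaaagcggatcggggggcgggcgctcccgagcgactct
Insig1: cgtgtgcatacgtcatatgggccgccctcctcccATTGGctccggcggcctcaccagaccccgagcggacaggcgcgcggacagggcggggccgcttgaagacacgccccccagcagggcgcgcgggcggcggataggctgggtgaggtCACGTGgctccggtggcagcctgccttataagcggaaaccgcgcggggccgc
Gpam: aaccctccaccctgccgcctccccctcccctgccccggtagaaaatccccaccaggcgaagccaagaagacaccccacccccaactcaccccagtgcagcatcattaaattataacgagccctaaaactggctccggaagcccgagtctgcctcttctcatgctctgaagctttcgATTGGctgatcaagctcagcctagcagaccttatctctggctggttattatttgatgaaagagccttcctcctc
Hmgcs1 held 1 sterol element, which began 137 bases before the start, and 3 CCAAT boxes, all read on the opposite strand as ATTGG. Insig1 held 1 CCAAT box and 1 E-box, which began 101 bases before the start, and Gpam held 1 CCAAT box. Promoters were found for 33 of the 41 members, at 44 starts, and the 250 bases before each start were searched on both strands. The CCAAT box was present at 27 of the 44 starts (61.4%), against 33.8% of all 32851 starts in the reference. The E-box was present at 7 starts (15.9% against 6.02%), and the GC box GGGCGG, the letters bound by Sp1, at 30 (68.2% against 32.7%). The strict sterol element was present at 2 starts (4.55% against 1.05%), those of Hmgcs1 and Mlxipl. At the member starts, matches to different motifs overlapped in 1 place, and a match is a description of the sequence only.

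Values are normalized read counts, scaled by the authors to a common total in each library. Libraries are called basal 1, basal 3, luminal 3 and luminal 2 by their replicate numbers. The value of 1 read was 6.26 and 6.50 in basal 1 and 3, 19.4 in luminal 3 and 31.2 in luminal 2, so that the libraries held 643267 to 3194313 reads on genes and the luminal libraries were the shallowest. Krt5, Krt14, Trp63 and Itga6, which mark basal cells, did not overlap between the groups and were called by limma, and Krt8, Krt18 and Krt19 were higher in both luminal libraries, with a call for Krt19. Stromal transcripts were present in every library despite the sort: the summed value of 8 stromal markers was 123475 and 243811 in basal 1 and 3, 78661 in luminal 3 and 239328 in luminal 2. Of 8 adipocyte markers, Adipoq, Plin1 and Lep were at 0 in all libraries, and the summed value of the 8 was 19 to 125 per library. The stromal sums overlapped between the groups, while Dcn was higher in both basal libraries (45830 and 47724 against 5770 and 20256) and Des in both luminal libraries (820 and 1715 against 3207 and 2834). The summed value of 5 immune markers was 833 to 2968 and overlapped between the groups. That of 3 endothelial markers did not overlap, at 1347 and 1157 in basal 1 and 3 and 387 and 841 in luminal 3 and 2, which is the direction of the members that were higher in basal cells, and the part of other cell types in the results was not tested. Nuclear protein-coding genes took 74.7% to 76.0% of the basal and 57.3% to 64.2% of the luminal values.

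The fatty acid and cholesterol genes did not move one way between basal and luminal cells. Of the 41 members 40 passed the filter on low values and were tested, and Thrsp, a regulator of lipogenesis, had 1 read in basal 3 and none elsewhere. The median log2 fold change of the 40, luminal over basal, was 0.16, against -0.10 over all 18737 genes tested, and 22 of the 40 were above 0. Without luminal 3 the median of the members tested was -0.31, against 0.16 over all genes. No member had a limma adjusted p under 0.05, where 0.694% of all genes had one, and 5 of the 40 (Fads1, Gpam, Elovl6, Ebp and Hmgcs1) were under 0.05 unadjusted, where 18.5% of all genes were. By the study's fold rule, a ratio of group averages of 2 or more or of 0.5 or less, 4 members were higher in luminal cells (Gpam, Ebp, Pmvk and Mlxipl; background 18.3%) and 3 in basal cells (Fads1, Elovl6 and Hmgcs1; background 16.3%). edgeR on the recovered reads called 3 members (5.14% of all genes), Gpam as higher in luminal cells (2.42% of all genes) and Fads1 and Elovl6 as higher in basal cells (2.72%), and 5 members were under 0.05 unadjusted (19.1%). DESeq2 called 2 members (4.44%), none as higher in luminal cells (2.17%) and Fads1 and Elovl6 as higher in basal cells (2.27%), and 5 members were under 0.05 unadjusted (11.2%). The groups did not overlap for 15 members (background 50.9%), 6 that were higher and 9 that were lower in luminal cells (23.6% and 27.3%), and they overlapped for the other 25 tested. In these bulk samples, fewer cells of a type and less RNA per cell cannot be told apart.

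**Figure D1:**
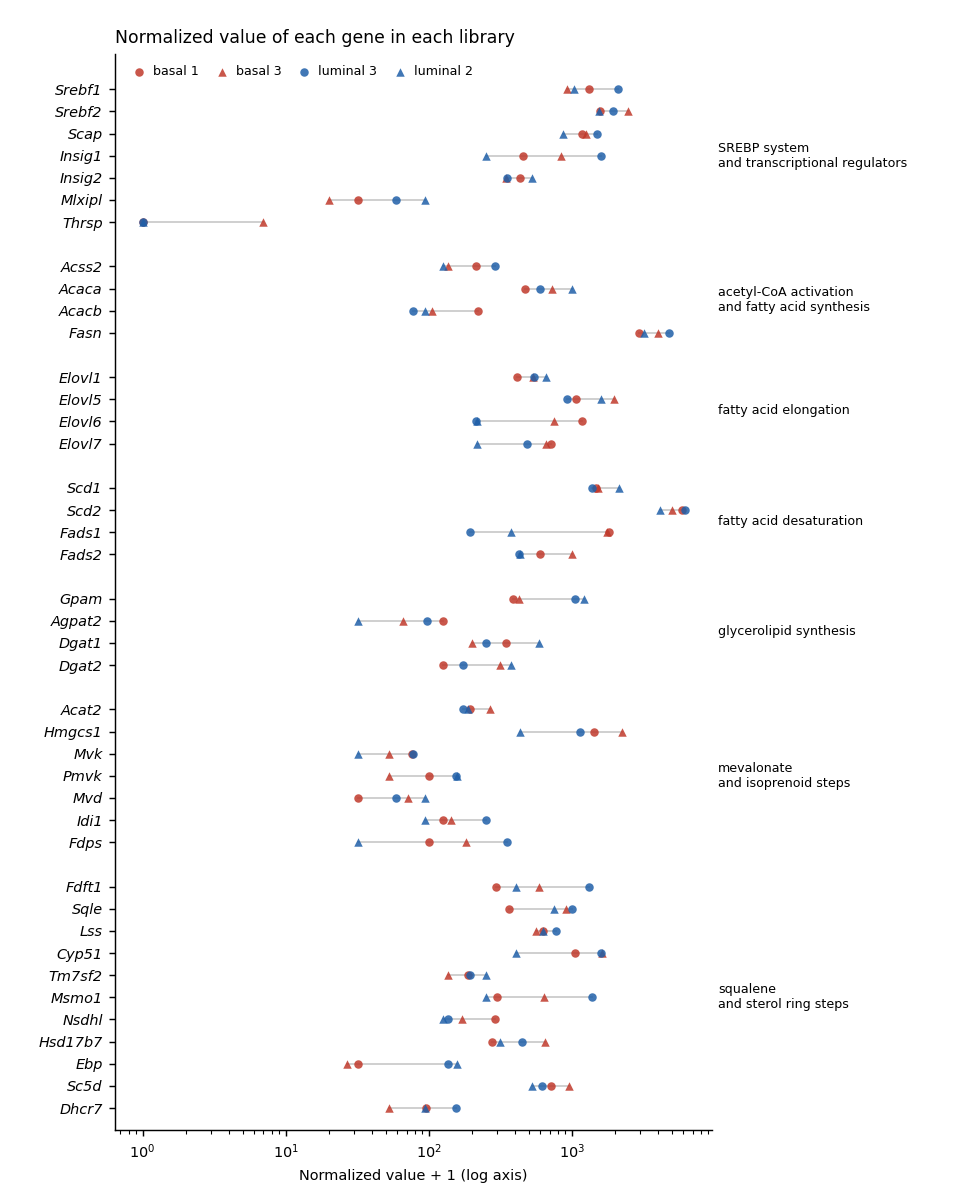
Normalized value plus 1 (log axis) of each of the 41 genes in the 4 libraries, grouped by role. Red marks are basal and blue marks luminal libraries, and grey lines span the 4 values. The blue marks lie left of the red for Elovl6 and Fads1 and right of them for Gpam and Ebp, while for most genes the colours mix.

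**Figure D2:**
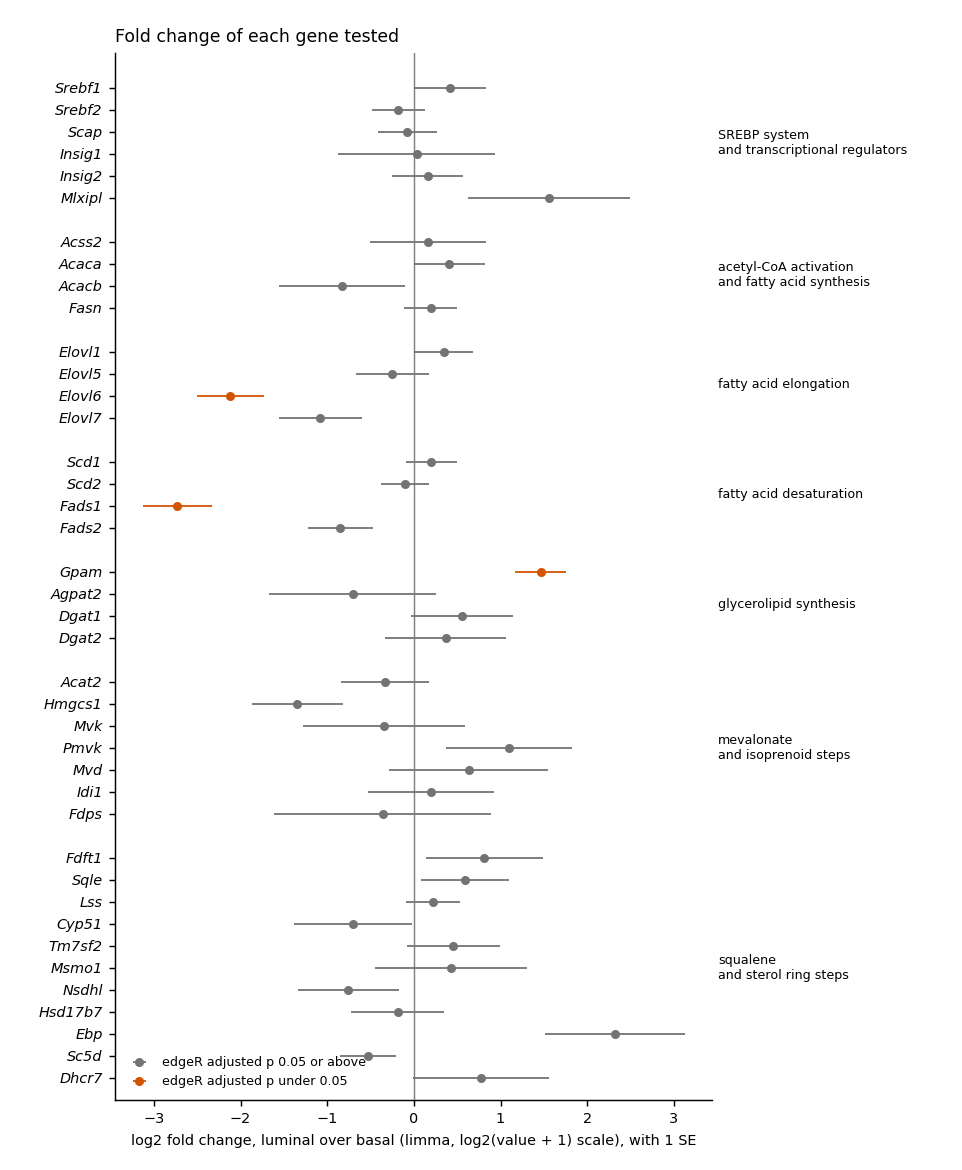
limma log2 fold change, luminal over basal, on the log2(value + 1) scale with 1 SE for the 40 genes tested (2 libraries per group). Fads1 (-2.73) and Elovl6 (-2.12) lie farthest left, Ebp (2.32) farthest right, and orange marks the 3 genes with an edgeR adjusted p under 0.05.

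Desaturases place carbon-carbon unsaturation into acyl chains, and the list held a pair for saturated chains (Scd1, Scd2) and a pair for polyunsaturated chains (Fads1, Fads2). Fads1, the delta-5 desaturase needed for arachidonate synthesis (ENSMUSG00000010663, chromosome 19, 10182888 to 10196877, plus strand, GRCm38), had the lowest fold change of the 40 members tested. Its values were 1829 and 1754 in basal 1 and 3, 194 in luminal 3 and 374 in luminal 2, the luminal values resting on 10 and 12 reads. Every basal value was above every luminal value, and the basal libraries differed by far less than the gap between groups. The log2 fold change was -2.73 (SE 0.40, n = 2 per group, limma adjusted p = 0.0627), and leaving out each library in turn gave -3.20 to -2.26. edgeR gave an adjusted p of 0.00228 and DESeq2 0.000198, and the edgeR call held without each library in turn, with 0.0282 as the highest adjusted p. Fads2, the delta-6 desaturase acting upstream of Fads1, lies beside it on chromosome 19 and was also lower in both luminal libraries, at 601 and 1007 in basal and 426 and 436 in luminal cells. Its log2 fold change was smaller, -0.85 (SE 0.38, limma adjusted p = 0.310).

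Scd1 and Scd2, the stearoyl-CoA desaturases that make oleate, did not separate the cell types. Scd2 was the most abundant member per kilobase of exon, with a mean over the cell types of 969 normalized reads per kb, and Scd1 ranked 4th at 335. Scd2 stood at 5856 and 5028 in basal 1 and 3 and at 6157 and 4145 in luminal 3 and 2, with a log2 fold change of -0.10 (SE 0.27). Scd1 stood at 1478 and 1533 in basal and at 1394 and 2150 in luminal cells, with a log2 fold change of 0.20 (SE 0.29). For both genes the luminal libraries spanned the basal values, and the sign of the Scd2 change turned to 0.21 on rescaling to protein-coding genes and 0.29 on quantile normalization. Leaving out luminal 2 gave -0.11 for Scd1 and 0.18 for Scd2. The Scd genes are close paralogues, so how reads shared between them were counted is uncertain.

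Elongases add carbon units to acyl chains, and here too 1 member stood out. Elovl6, which extends palmitate to stearate (ENSMUSG00000041220, chromosome 3, 129532355 to 129638495, plus strand), had values of 1171 and 754 in basal 1 and 3, 213 in luminal 3 and 218 in luminal 2. The luminal libraries were nearly equal, on 11 and 7 reads, and both lay far below the lower basal value. The log2 fold change was -2.12 (SE 0.39, n = 2 per group, limma adjusted p = 0.0688), with a range of -2.44 to -1.80 when each library was left out. The call depended on the model, with an adjusted p of 0.0160 in edgeR, 0.0245 in DESeq2 and 0.0283 in limma when only genes passing the filter in both groups were tested. The edgeR call was lost without basal 1 (adjusted p = 0.101), luminal 3 (0.0959) or luminal 2 (0.0515) and held without basal 3 (0.00541). The other 3 elongases had log2 fold changes from -1.08 to 0.34. Elovl7, named here after its values were seen, was lower in both luminal libraries (714 and 663 in basal 1 and 3, 484 and 218 in luminal 3 and 2), with a limma adjusted p of 0.310. Elovl5, the elongase of polyunsaturated chains, ranked 2nd of the 41 per kilobase, and its groups overlapped. The summed value of the 4 elongases was 3363 and 3905 in basal and 2168 and 2679 in luminal cells, a ratio of 0.67, while that of the 4 desaturases was 9764 and 9322 in basal and 8171 and 7105 in luminal cells, a ratio of 0.80. On rescaling to protein-coding genes the log2 ratio of the desaturase sums became -0.0037, and that of the elongase sums -0.28.

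None of the enzymes that make palmitate was called by limma, edgeR, DESeq2 or the fold rule. Fasn, the multienzyme that assembles palmitate, ranked 3rd per kilobase and stood at 2931 and 3982 in basal 1 and 3 and at 4802 and 3179 in luminal 3 and 2. Its groups overlapped, and the log2 fold change was 0.19 (SE 0.30, limma adjusted p = 0.749). Acaca, the cytosolic acetyl-CoA carboxylase that commits acetyl-CoA to fatty acid synthesis, stood at 470 and 721 in basal and at 600 and 997 in luminal cells. The luminal values lay on either side of the higher basal value, and the log2 fold change was 0.41 (SE 0.41, limma adjusted p = 0.610). The Fasn change turned to -0.10 without luminal 3 and to -0.03 without basal 1, whereas that of Acaca stayed between 0.04 and 0.78 when each library was left out. The remaining pair, the acetate-activating Acss2 and the mitochondria-associated carboxylase Acacb, had log2 fold changes of 0.16 and -0.83, and Acacb rested on 4 and 3 luminal reads. The summed value of these 4 genes was 3833 and 4943 in basal and 5769 and 4394 in luminal cells.

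Among the regulators tested the groups overlapped in all but Mlxipl. Srebf1, whose product drives mainly fatty acid synthesis genes, had values of 1312 and 919 in basal 1 and 3 and 2091 and 1028 in luminal 3 and 2, with a log2 fold change of 0.42 (SE 0.42). Srebf2, whose product drives mainly sterol genes, had values of 1572 and 2455 in basal and 1936 and 1558 in luminal cells, with a log2 fold change of -0.18 (SE 0.31). In both genes 1 luminal value lay inside the basal range. Without luminal 3 the Srebf1 change was -0.10, and without basal 3 the Srebf2 change was 0.14. Scap had values of 1171 and 1247 in basal and 1510 and 873 in luminal cells, so that the luminal libraries lay on both sides of the basal ones (log2 fold change -0.07, SE 0.34, and 0.32 without luminal 2). Insig2 had values of 432 and 344 in basal and 349 and 530 in luminal cells (log2 fold change 0.16, SE 0.41, and -0.14 without luminal 2). The sign for Srebf2 and Scap changed on rescaling to protein-coding genes, to 0.13 and 0.24, and limma adjusted p was 0.614 to 0.989 for these genes and Insig1.

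Insig1, itself a target of SREBP, varied more between libraries of a cell type than between cell types. It stood at 457 and 838 in basal 1 and 3, 1607 in luminal 3 and 249 in luminal 2, so that the highest and the lowest of the 4 values were both luminal. The log2 fold change was 0.03 (SE 0.91), and it was -1.31 without luminal 3, -0.40 without basal 1 and 1.38 without luminal 2. Mlxipl, which encodes the glucose-responsive factor ChREBP and is named here after its values were seen, was higher in both luminal libraries (31 and 19 in basal, 58 and 93 in luminal cells), but with 3 to 5 reads in each library (limma adjusted p = 0.431).

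Among the enzymes of glycerolipid synthesis, Gpam was higher in luminal cells. Gpam encodes the mitochondrial glycerol-3-phosphate acyltransferase, which catalyses the first step of triglyceride and phospholipid synthesis (ENSMUSG00000024978, chromosome 19, 55067268 to 55127238, minus strand). Its values were 388 and 429 in basal 1 and 3, 1046 in luminal 3 and 1215 in luminal 2, a ratio of group averages of 2.77 with 39 reads or more in every library. The libraries of each cell type were close together and the groups lay far apart. The log2 fold change was 1.46 (SE 0.29, n = 2 per group, limma adjusted p = 0.0705), and it stayed between 1.36 and 1.57 when each library was left out. edgeR called it with an adjusted p of 0.0376 and DESeq2 did not, with 0.0715. The edgeR call was lost whichever library was left out, with adjusted p from 0.0795 without basal 3 to 0.172 without basal 1. Its promoter is the stretch shown above with a single CCAAT box.

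Dgat1 and Dgat2, which complete triglycerides, and Agpat2, which acylates lysophosphatidate, had log2 fold changes of 0.55, 0.37 and -0.70, with groups that overlapped in each. Agpat2 rested on 5 and 1 reads in the luminal libraries. The summed value of the 4 glycerolipid genes was 982 and 1007 in basal and 1569 and 2212 in luminal cells, a ratio of 1.90, of which Gpam alone made up 1046 and 1215 in the luminal libraries.

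Hmgcs1 led the mevalonate genes. It encodes the synthase that condenses acetyl-CoA and acetoacetyl-CoA to HMG-CoA, ranked 5th per kilobase (ENSMUSG00000093930, chromosome 13, 119690379 to 119708260, plus strand) and carried the sterol element shown above. Its values were 1434 and 2241 in basal 1 and 3, 1142 in luminal 3 and 436 in luminal 2. Both luminal values were below both basal values, but luminal 3 was nearer to basal 1 than to the other luminal library. The log2 fold change was -1.34 (SE 0.52, limma adjusted p = 0.262), and it was -2.04 without luminal 3 and -0.65 without luminal 2. edgeR (adjusted p = 0.187) and DESeq2 (0.331) made no call. Pmvk, the phosphomevalonate kinase, had 100 and 52 in basal and 155 and 156 in luminal cells, with a ratio of group averages of 2.05. With 5 to 16 reads per library its log2 fold change was 1.10 (SE 0.73, limma adjusted p = 0.467).

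The other 5 mevalonate and isoprenoid genes, Acat2, Mvk, Mvd, Idi1 and Fdps, had log2 fold changes from -0.36 to 0.63, all with a limma adjusted p of 0.728 or more. Fdps, the farnesyl diphosphate synthase, named here after its values were seen, had the highest ratio between replicates in the list, at 349 (18 reads) in luminal 3 and 31 (1 read) in luminal 2, and its log2 fold change was -0.36 with limma and 0.58 with edgeR. The summed value of the 7 genes was 2059 and 3007 in basal and 2207 and 1027 in luminal cells.

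Of the enzymes from farnesyl diphosphate to cholesterol, limma, edgeR and DESeq2 called none, and only Ebp was past the fold rule. Fdft1, the squalene synthase, had values of 294 and 585 in basal 1 and 3 and 1317 and 405 in luminal 3 and 2 (log2 fold change 0.82, SE 0.67, limma adjusted p = 0.543). Only luminal 3 lay above the basal range, and without it the log2 fold change was -0.03. Sqle, the epoxidase that sets the pace after squalene, had values of 363 and 916 in basal and 1007 and 748 in luminal cells (log2 fold change 0.59, SE 0.51, limma adjusted p = 0.561). Here basal 1 was the library that stood apart, and without it the log2 fold change was -0.08.

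Ebp, the sterol isomerase late in the pathway, had the highest fold change of the list and is named after its values were seen. It stood at 31 and 26 in basal and at 136 and 156 in luminal cells, which corresponds to 5, 4, 7 and 5 reads. The log2 fold change was 2.32 (SE 0.81, limma adjusted p = 0.218), and the ratio of pooled reads had a 95% interval of 1.93 to 13.4, which covers counting error only. The other 8 ring genes (Lss, Cyp51, Tm7sf2, Msmo1, Nsdhl, Hsd17b7, Sc5d and Dhcr7) had log2 fold changes from -0.75 to 0.77. In 2 of them, Nsdhl and Sc5d, both luminal libraries were lower (27.3% of all genes), and in Tm7sf2 both were higher (23.6%). The summed value of the 11 genes was 4221 and 6327 in basal and 7766 and 3895 in luminal cells, so that the luminal libraries lay on both sides of the basal ones.

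The sterol genes differed between libraries of the same cell type. Among the mevalonate and sterol ring genes 14 averaged 100 or more, and 11 of them stood higher in luminal 3 than in luminal 2, where 47.0% of all 12544 genes at that level were. At a ratio of 2 or more there were 6 (Hmgcs1, Idi1, Fdps, Fdft1, Cyp51 and Msmo1; 11.0% of all genes), and no sterol gene was that much higher in luminal 2 (16.0% of all genes). The largest ratios with 8 or more reads in each library were 5.60 for Msmo1 and 3.92 for Cyp51, and Insig1 from the regulators had 6.45. Of the 15 members of fatty acid and glycerolipid synthesis at that level, 4 were higher in luminal 3. The basal libraries also differed in these genes, with 10 of 14 higher in basal 3 than in basal 1 (41.8% of all genes) and 3 at a ratio of 2 or more (Sqle, Msmo1 and Hsd17b7; 7.55% of all genes). Over the sterol genes the median log2 ratio was 0.47 between the luminal and 0.55 between the basal libraries.

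The sterol genes' share of all reads was 0.0314% in basal 1, 0.0467% in basal 3, 0.0497% in luminal 3 and 0.0246% in luminal 2. The 95% Wilson intervals, which cover counting error only, were 0.0456% to 0.0542% in luminal 3 and 0.0210% to 0.0287% in luminal 2, whose recovered reads are approximate. The comparison of cell types depended on which libraries were paired. Over all 40 members tested, the median log2 ratio was 0.36 for luminal 3 over basal 1 and -0.31 for luminal 2 over basal 3, against -0.16 and 0.03 over all genes tested. The library with fewer sterol transcripts was the shallower one and had the higher stromal sum among the luminal libraries, whereas basal 3 had more sterol transcripts and the higher stromal sum among the basal ones. The part of stroma and depth in this difference was not tested.

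**Figure D3:**
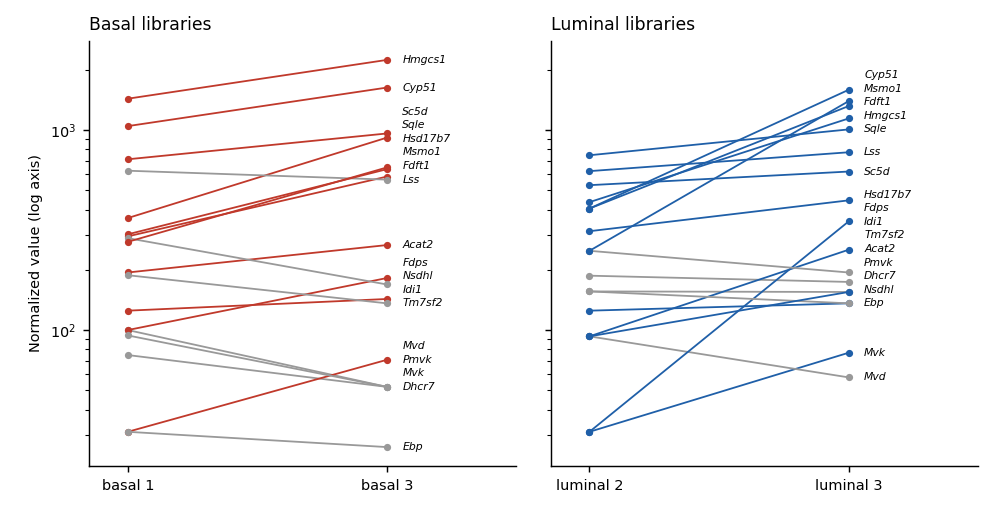
Normalized value (log axis) of the 18 mevalonate and sterol ring genes in the basal libraries (left) and in the luminal libraries (right), each line joining the values of a gene. Coloured lines rise from left to right and grey lines do not; in the luminal panel Fdps, Msmo1, Cyp51 and Fdft1 climb most steeply.

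Shares within pairs of related genes do not depend on how libraries were scaled. Fads1 took 75.3% and 63.5% of the reads of Fads1 and Fads2 in basal 1 and 3 but 31.3% and 46.2% in luminal 3 and 2. The basal mean of 69.4% ± 8.3 (SD, n = 2) and the luminal mean of 38.7% ± 10.5 (SD, n = 2) differed by 30.7 points, and the groups did not overlap. Elovl6 took 52.4% and 27.8% of the Elovl6 and Elovl5 reads in basal cells and 18.7% and 12.1% in luminal cells, again without overlap, although the 95% Wilson intervals of basal 3 (23.7% to 32.3%) and luminal 3 (10.7% to 30.4%) did overlap. With 2 libraries per group the smallest two-sided p of an exact permutation test is 0.333, so these shares were not tested.

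The share of Acaca over Acacb was 68.2% and 87.4% in basal and 88.6% and 91.5% in luminal cells, with basal 3 within the luminal intervals. Scd1 took 18.5% to 34.2% of the Scd1 and Scd2 reads, Srebf1 took 27.2% to 51.9% of the Srebf1 and Srebf2 reads and Dgat1 took 39.2% to 73.3% of the Dgat1 and Dgat2 reads, and in each the groups overlapped. Insig1 took 82.2% of the Insig1 and Insig2 reads in luminal 3 and 32.0% in luminal 2, with the basal libraries, at 51.4% and 70.9%, between them.

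**Figure D4:**
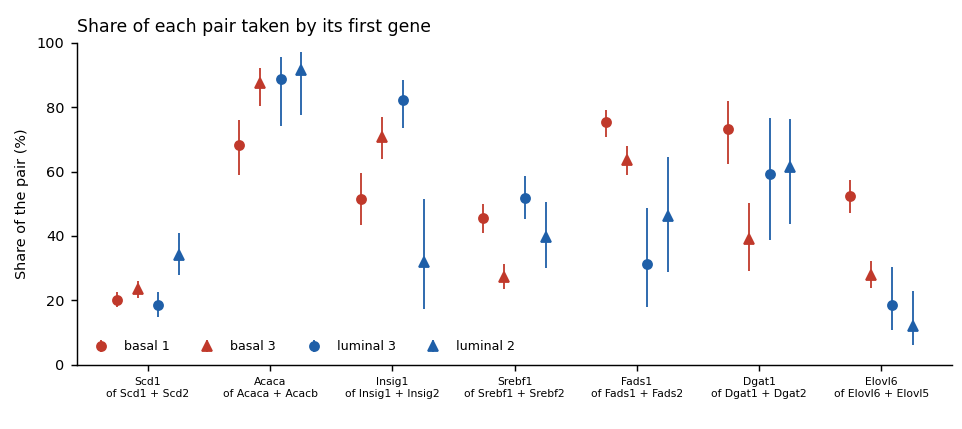
Share (%) of each pair of related genes taken by the first gene, per library, with 95% Wilson intervals on recovered reads. Red marks are basal and blue marks luminal libraries. Fads1 and Elovl6 are the pairs in which both red marks lie above both blue marks, and for Insig1 the luminal libraries lie at 82.2% and 32.0%.

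Other lists of lipid genes were read beside the members. In them 0 genes had a limma adjusted p under 0.05 (0.694% of all genes tested). edgeR called Acsl1 and Lipe, both as higher in luminal cells (2.42% of all genes, and 5.14% in either direction). Among 29 acyl-CoA, elongation and lipid synthesis partners, 25 were tested and the median log2 fold change was -0.07, with 4 higher in luminal and 4 in basal cells by the fold rule (18.3% and 16.3% of all genes, where the median was -0.10). Acsl1, which activates long-chain fatty acids for esterification or oxidation, had values of 357 and 273 in basal 1 and 3 and 1084 and 748 in luminal 3 and 2, the same direction as Gpam. Its log2 fold change was 1.53 (SE 0.37, limma adjusted p = 0.0974, edgeR adjusted p = 0.0448). Fads3, a relative of Fads1 in the same cluster, was lower in both luminal libraries (163 and 227 in basal, 58 and 93 in luminal cells, log2 fold change -1.38, limma adjusted p = 0.356). Its luminal values rested on 3 and 3 reads.

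Of 14 genes of lipid droplets, lipolysis and fatty acid binding 12 were tested, with a median log2 fold change of -0.26, 2 past the fold rule in luminal and 1 in basal cells (18.3% and 16.3% of all genes). Lipe, the hormone-sensitive lipase, had values of 100 and 110 in basal and 310 and 841 in luminal cells, and both luminal libraries were above both basal ones. Its log2 fold change was 2.27 (SE 0.63, limma adjusted p = 0.139, edgeR adjusted p = 0.0383, DESeq2 adjusted p = 0.0222). Of the 8 adipocyte markers, Pparg was also highest in luminal 2. It stood at 13 and 26 in basal 1 and 3, 19 in luminal 3 and 125 in luminal 2, on 1 to 4 reads each. The other 7 were at 0 in both luminal libraries, 3 of them (Adipoq, Plin1 and Lep) in every library, and the part of adipocytes in the Lipe values was not tested. Pnpla2, the adipose triglyceride lipase, and Mgll, which cleaves monoacylglycerol, had log2 fold changes of 0.90 and -0.77 with a limma adjusted p of 0.377 and 0.582.

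All 21 fatty acid oxidation genes were tested, with a median log2 fold change of 0.17, 3 past the fold rule in luminal and 2 in basal cells (18.3% and 16.3% of all genes). Cpt1a, the carnitine transferase that admits long chains to mitochondria and is named here after its values were seen, stood at 1415 and 1267 in basal and 1375 and 1309 in luminal cells (log2 fold change 0.00, SE 0.24). Its paralogue Cpt1b had 13 and 71 in basal and 232 and 125 in luminal cells (2.43, SE 1.09, limma adjusted p = 0.314), on 2 to 12 reads per library. Decr1, which handles polyunsaturated intermediates, had 607 and 552 in basal and 213 and 187 in luminal cells (-1.53, SE 0.39, limma adjusted p = 0.107).

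Of 14 genes of sterol uptake, transport and efflux, all tested, 3 were higher in luminal and 3 in basal cells by the fold rule (18.3% and 16.3% of all genes), and the median log2 fold change was -0.07. Lipa, the lysosomal lipase that frees cholesterol from its esters, had 395 and 416 in basal and 213 and 62 in luminal cells (log2 fold change -1.81, SE 0.72, limma adjusted p = 0.269). The luminal values of Lipa rested on 11 and 2 reads. Vldlr, a lipoprotein receptor, had 2073 and 2455 in basal and 407 and 1558 in luminal cells (-1.50, SE 0.64, limma adjusted p = 0.291), and Mylip, the ligase that degrades lipoprotein receptors, had 1121 and 708 in basal and 1317 and 3708 in luminal cells (1.31, SE 0.55, limma adjusted p = 0.285).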

How the data were processed

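RNA-seq values of 4 libraries, grouped as labelled, were analysed. The authors aligned reads with STAR to GRCm38, counted them per gene with HTSeq, scaled the counts to a common total and deposited the result as a signal per gene and library, a whole number per gene; the submitters' processing notes also name Picard, without its role, and the strand setting is not given in the sources used here. The step between values of up to 60 reads gave what 1 read is worth, a step on which 97.9% to 99.0% of low values lay (within 0.51), and values were divided by it to recover reads. Part of the values of luminal replicate 2 lay on a second spacing. Genes with 10 or more in every sample of at least 1 group and a group average of 20 or more were tested (18737). The main test was limma 3.58.1 on log2(value + 1), with its prior trended and p adjusted over all of them by Benjamini-Hochberg. As alternatives, recovered reads were tested with the quasi-likelihood test of edgeR 4.0.16 and with DESeq2 1.42.0. For genes with few reads, fold changes on this scale depend on the pseudocount and can differ in size or sign from those of edgeR. Scripts were tested on simulated data. Names and positions are those of GENCODE for GRCm38 (49412 of 49671 identifiers matched), and promoters those of RefSeq. Exon lengths were unions of exons.

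The members and lists were chosen with earlier results of these data known. Values are given for members past the fold rule with an average of 100 or more, for members called by limma, for 12 regulators and rate-setting enzymes, and for the 3 largest fold changes at that average in each other list, of which some are not reported here. Alternatives changed the filter, pseudocount, prior, scaling, fold threshold and model, and left out each library; edgeR without each library and rescaled sums were added after seeing the data.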

Additional observations from a re-analysis of the deposited data

How the results depend on the processing

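limma made 0 calls among the members under the authors' scaling with the trended prior, and 0 when any single library was left out, where the lone sample of an arm is assumed to vary like those of the other group; in those fits limma called 1.66% to 4.78% of all genes. The number of calls was 2 with only genes passing the filter in both groups (4.53% of all genes), 2 with a pseudocount of 10 (2.83%), 1 with quantile normalization (4.67%), 3 with edgeR (5.14%) and 2 with DESeq2 (4.44%), and 1 to 2 with edgeR when each library was left out (1.76% to 5.41%). Fads1 was called in each of these, Elovl6 where there were 2 or more calls and Gpam with edgeR on all libraries. Under the both-groups filter, the pseudocount of 10, edgeR and DESeq2, the log2 fold change was -2.73, -2.69, -2.69 and -2.67 for Fads1 (-2.60 with quantile normalization) and -2.12, -2.07, -2.12 and -2.11 for Elovl6, and it was 1.48 for Gpam with edgeR. Leaving out each library, with limma or edgeR, gave -3.20 to -2.26 for Fads1 and -2.44 to -1.80 for Elovl6.

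By the fold rule, members higher in luminal cells numbered 7 on rescaling to nuclear protein-coding genes (24.3% of all genes), 1 at a fold of 4 (7.77%) and 8 at a fold of 1.5 (27.4%), and 5 to 9 without each library (19.5% to 26.8%), most without basal 3 or luminal 2. Members higher in basal cells numbered 7 at a fold of 1.5 (27.4%) and 3 to 9 without each library (17.0% to 23.4%), most without luminal 3 (17.5%). The median log2 fold change of the members was 0.47 on rescaling to protein-coding genes, where that of all genes tested was 0.21, and -0.44 to 0.30 without each library, lowest without luminal 3.

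The sign changed for Srebf2 (0.13 on rescaling to protein-coding genes, 0.094 with quantile normalization), Scap (0.24, 0.15, and 0.030 with edgeR and 0.040 with DESeq2) and Scd2 (0.21 and 0.29). Leaving out each library gave -0.20 to 0.98 for Srebf1, -0.50 to 0.24 for Srebf2, -0.56 to 0.38 for Scap, -1.48 to 1.38 for Insig1, -0.14 to 0.46 for Insig2, -0.22 to 0.54 for Fasn, -0.11 to 0.51 for Scd1, -0.48 to 0.24 for Scd2, -0.22 to 1.69 for Fdft1 and -0.078 to 1.37 for Sqle. The log2 ratio of summed values became, on rescaling to protein-coding genes, 0.53 for fatty acid synthesis, -0.28 for elongation, -0.0037 for desaturation and 1.22 for glycerolipid synthesis, and with quantile normalization 0.53 for fatty acid synthesis and 0.016 for desaturation, and leaving out each library gave -0.32 to 0.48 for the regulators, 0.66 to 1.15 for glycerolipid synthesis, -1.30 to -0.20 for mevalonate steps and -0.44 to 0.56 for sterol ring steps. The cause of these changes was not tested.

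No paired analysis was possible because the groups share a single replicate number. With 1 read worth 19.4 and 31.2 in the luminal libraries, genes under about 100 there, members or not, rest on few reads.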
